A study of Mus musculus with 23 samples.

Results

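The cytoplasmic ribosomal protein genes encode the protein components of the large and small ribosomal subunits, and their signals were followed across 23 arrays of mouse medulloblastoma allografts. From a list of 56 such genes, those with at least 1 probe set annotated to that gene alone were kept, which left 34 genes and 77 probe sets of 45101 on the array. The other 22 were dropped: 21 have only probe sets annotated to several genes, often a gene and its pseudogenes, and 1 has none. Of the 34 genes, 33 were bright enough to be tested, with 76 probe sets. Rps16 was not, because its 1 probe set stayed near the floor of the scale.

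All tumours came from Ptch+/-HIC+/- mice, in which 1 copy of the Hedgehog receptor gene Ptch1 is inactive, and were implanted as dissociated tumour cells under the flank skin of nude mice, which lack T cells and keep their other host cells. NVP-LDE225 is an antagonist of Smoothened, the Hedgehog signal transducer, and the comparisons ask how expression changes after short treatment and in tumours labelled resistant. Vehicle was given to 3 arrays' tumours with no stated time and to 2 collected at 4 h. NVP-LDE225 at 40 mg/kg was given for 4, 8, 24 or 48 h, with 3 arrays each, and resistant tumours were collected at 40 mg/kg and at 160 mg/kg, with 3 arrays each and no stated time. The age of the animals is not given in the sources used here. For 6 of the 12 short-term arrays (1 at 24 h, 2 at 4 h and all 3 at 8 h) another label reads resistant, and the description was followed. Whether the replicates are separate animals is not stated either, so the p-values speak only of the spread among these arrays, which may be technical.

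A ribosome joins a small subunit, which reads the mRNA, to a large subunit, which forms the peptide bonds, and each cell makes their proteins in matched amounts. The mRNAs of these proteins are among the most abundant in growing cells and usually begin with a run of pyrimidines, the 5' terminal oligopyrimidine (TOP) motif, through which mTOR and the binding protein Larp1 adjust their translation and stability. Myc family proteins, among them N-Myc in Hedgehog-driven cerebellar granule neuron progenitors, promote ribosome production.

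The values are MAS5 signals, linear intensities scaled so that the trimmed mean of each array is 150. Differences are in log2 of signal plus 16, which understates changes of dim probe sets. A gene was called when its limma p-value, adjusted by the Benjamini-Hochberg method over all 35069 tested probe sets, was under 0.05. Each gene is described by its brightest probe set. Gli1, a direct Hedgehog target, had a signal of 679 ± 42.2 (SD, n = 3) in vehicle, 100 ± 19.99 (n = 3) at 4 h, 10.5 ± 11.3 (n = 3) at 8 h and 12.3 ± 7.37 (n = 3) at 48 h. In the resistant tumours Gli1 was 1165 ± 172 (n = 3) at 40 mg/kg and 633 ± 60.9 (n = 3) at 160 mg/kg. The summed signal of 10 markers of granule neuron progenitors and medulloblastoma lay between 11880 and 21540 on the 23 arrays, but the sum joins genes that moved in opposite directions under drug, and 1 of the 10 markers was under a signal of 50 on every array at 8, 24 and 48 h.

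Of the 33 genes, 27 had bright representative probe sets, with mean signals over the 23 arrays between 5553 and 15620, and 6 had dim ones, between 68.8 and 921 (Rpl12, Rpl14, Rpl37, Rps25, Rps27 and Rps6). A dim probe set need not mean a scarce mRNA, and signals of different probe sets were not set against each other. Among the genes with a bright probe set was Rplp0, the scaffold of the ribosomal stalk, with vehicle signals of 12043, 12317 and 10378. Rplp2, an acidic stalk protein, read 12639, 12582 and 10610 on the same arrays. Rpsa, a small subunit protein also known as the laminin receptor, read 12121, 12304 and 10746. In these 3 genes the third vehicle array was the lowest, and over all 33 genes its median was 0.12 below the vehicle mean on the log2 scale, against 0.09 and 0.03 above it for the first and second. Rpl11, which can bind and inhibit Mdm2, read 6177, 6058 and 5591. Rpl41, the smallest ribosomal protein, read 12878, 12802 and 10010. Rps27, a zinc-binding small subunit protein, was near the floor at 39.7, 35.5 and 90.2, and its values carried the largest standard error of the family. Rplp1, Rpl3 and Rpl5 had no probe set of their own and are not analysed here.

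RefSeq promoters of build GRCm38.p6 were found for 29 of the 34 genes, in 34 entries of 300 bases, each holding 250 bases before the annotated start of transcription. The stretches below run from 40 bases before the start to 20 bases after it, 5' to 3' on the gene's strand. They show how alike the starts of this family are and where they differ, for the 4 genes with the largest falls at 48 h and the 4 with the smallest differences, among genes with 1 promoter entry. Capitals mark a run of at least 6 C or T letters that touches the 5 bases on either side of the start.
Rpl14: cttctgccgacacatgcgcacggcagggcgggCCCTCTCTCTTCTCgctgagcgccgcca
Rps6: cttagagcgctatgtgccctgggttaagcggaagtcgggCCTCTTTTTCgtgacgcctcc
Rps25: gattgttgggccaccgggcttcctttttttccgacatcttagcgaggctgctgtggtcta
Rpl12: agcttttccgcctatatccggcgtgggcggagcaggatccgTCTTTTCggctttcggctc
Rpl38: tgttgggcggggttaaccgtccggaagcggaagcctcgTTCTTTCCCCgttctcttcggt
Rpl11: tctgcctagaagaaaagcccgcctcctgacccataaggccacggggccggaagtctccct
Rplp2: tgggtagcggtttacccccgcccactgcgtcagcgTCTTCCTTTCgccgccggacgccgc
Rps2: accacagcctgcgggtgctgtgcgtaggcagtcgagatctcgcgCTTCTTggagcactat
The first 4 lie at chr9:120571477-120571536 (plus strand, Rpl14), chr4:86857348-86857407 (minus, Rps6), chr9:44407674-44407733 (plus, Rps25) and chr2:32961672-32961731 (plus, Rpl12). The others lie at chr11:114668540-114668599 (plus, Rpl38), chr4:136053374-136053433 (minus, Rpl11), chr7:141447611-141447670 (plus, Rplp2) and chr17:24720023-24720082 (plus, Rps2). Each stretch covers the end of the promoter and the start of the first exon.

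A pyrimidine run at the start was present in 16 of the 34 promoter entries (47.1%), against 21.0% of all 32851 promoters in the table. Among the genes printed, 3 of the 4 with the largest falls and 3 of the 4 with the smallest differences had such a run. In Rps25 the annotated start lies downstream of a long run of T, and in Rpl11 a short run lies further inside the gene, so neither met the definition. CCGGAAG, the core bound by ETS family factors, stood on either strand in 16 entries (47.1%), against 8.86% of all promoters. The E-box CACGTG, which Myc with Max can bind, stood in 4 (11.8%, against 7.15%), AAGATGG, the YY1 core, in 5 (14.7%, against 6.34%), and TATAAA in 3 (8.82%, against 13.6%). Of the genes with 1 entry whose probe set was tested, the 14 with a run had a median log2 difference of -0.41 at 48 h and 11 were called. The 10 without a run had -0.38, and 9 were called.

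At 48 h of drug, 26 of the 33 genes were called lower than vehicle and 0 higher, while 17.7% of all probe sets tested were called lower and 20.6% higher (38.3% in either direction). The median difference of the 33 genes was -0.37 on the log2 scale, a loss of 22.6% of the signal plus 16, against a median of 0.04 over all probe sets tested. The brightest probe sets of the 33 genes held 2.54% ± 0.15 (SD, n = 3) of the summed signal in vehicle and 2.11% ± 0.09 (n = 3) at 48 h. That sum runs over all probe sets except controls, and the family's other probe sets count in it alone. In 25 genes every 48 h array lay below every vehicle array, which 22.5% of all probe sets did. Both subunits were included, with 14 of 16 large subunit genes lower (median -0.38) and 12 of 17 small subunit genes lower (median -0.37). Over every probe set of the family the count was 58 of 76.

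**Figure D1:**
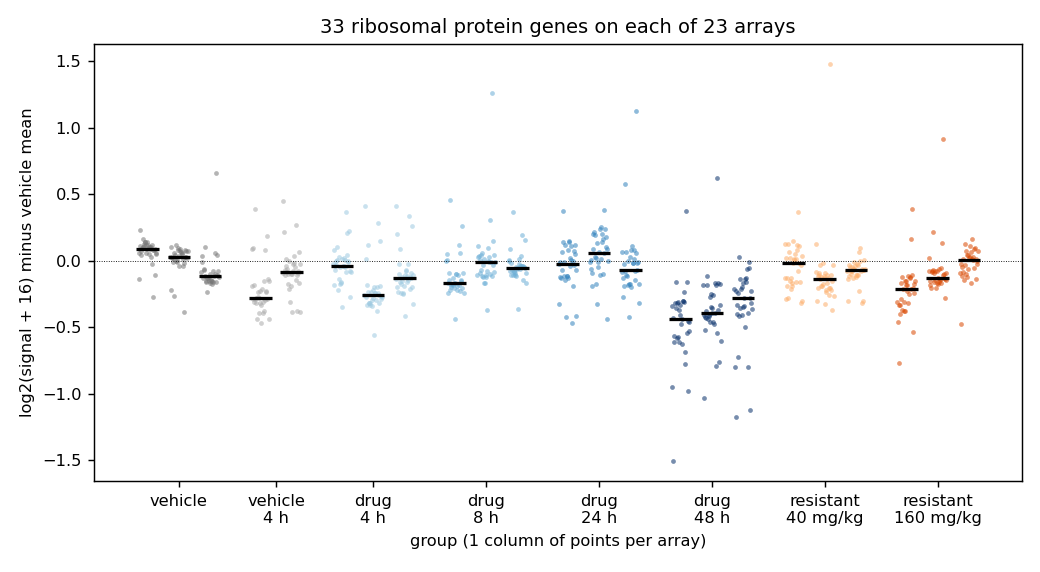
Log2(signal + 16) of 33 ribosomal protein genes on each of the 23 arrays, minus the gene's vehicle mean (points, 1 column per array), with the array's median as a bar. The medians of the 48 h arrays lie at -0.435, -0.391 and -0.284, below those of the other 20 arrays, which lie between -0.279 (a 4 h vehicle array) and 0.09.

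The largest falls were in genes with dim probe sets. Rpl14, a large subunit protein, had signals of 333, 240 and 279 in vehicle and 88.5, 130 and 116 at 48 h. The highest 48 h value was thus well below the lowest vehicle value, and the difference was -1.24 ± 0.15 (SE), adjusted p = 3.7e-07 by limma. Rps6, the small subunit protein phosphorylated by S6 kinase downstream of mTOR, had 534, 606 and 594 in vehicle and 285, 333 and 257 at 48 h. Its groups did not overlap either, and the difference was -0.95 ± 0.11 (SE). The second Rps6 probe set, with mean signals of 6.87 in vehicle and 14.7 at 48 h, was not called, at 0.44 ± 0.34 (SE). With the median over the probe sets of a gene in place of the brightest, Rps6 was not called at 48 h (-0.26, adjusted p = 0.33 by limma).

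Rps25, a small subunit protein needed for some internal ribosome entry sites, had 430, 426 and 457 in vehicle and a narrow 249, 246 and 245 at 48 h, a difference of -0.79 ± 0.13 (SE). Rpl12, part of the base of the stalk, had 222, 266 and 254 in vehicle and 120, 182 and 135 at 48 h, a difference of -0.72 ± 0.17 (SE). No 48 h array overlapped the vehicle arrays in either gene. Rpl14, Rps25 and Rpl12 kept their call in each of 18 alternative analyses. Each has a single probe set, so the alternatives that choose among the probe sets of a gene reuse the same values. Rpl22 and Rpl27, with 3 probe sets each, also kept their call in all 18.

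Genes with bright probe sets fell by less. Rps18, a small subunit head protein, went from 14512, 14160 and 11964 in vehicle to 8746, 9790 and 9566 at 48 h, a difference of -0.53 ± 0.10 (SE). Rpsa went to 8095, 7681 and 9102, a difference of -0.50 ± 0.11 (SE), and Rplp0 to 8941, 9089 and 10061, a difference of -0.30 ± 0.09 (SE). The highest 48 h value was below the lowest vehicle value in all 3. Rplp2, at -0.25 ± 0.09 (SE), and Rpl11, at -0.25 ± 0.08 (SE), were also called and did not overlap. Rpl41 was called at the margin, at -0.29 ± 0.11 (SE), adjusted p = 0.048 by limma, with overlapping groups. Its 3 other probe sets gave differences of -0.69, -0.22 and 0.25, of which the first alone was called.

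The 7 genes not called at 48 h were Rpl37, Rpl38, Rps2, Rps20, Rps24, Rps27 and Rps29. Rps29, a zinc-binding small subunit protein, had 17068, 17119 and 14507 in vehicle and 14463, 14403 and 16034 at 48 h, a difference of -0.11 ± 0.10 (SE). Rpl38, a large subunit protein linked to translation of Hox mRNAs, had 13319, 12910 and 11118 in vehicle and 11118, 10946 and 12677 at 48 h, a difference of -0.10 ± 0.10 (SE). Their groups overlapped, and their standard errors leave room for falls as large as those of Rplp2. Rps27 was the 1 gene with a difference above 0, at 0.31 ± 0.41 (SE). The brightest Rps24 probe set was not called (-0.16 ± 0.10, SE), but 4 of the 6 Rps24 probe sets were called lower, the largest at -1.68 ± 0.17 (SE).

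**Figure D2:**
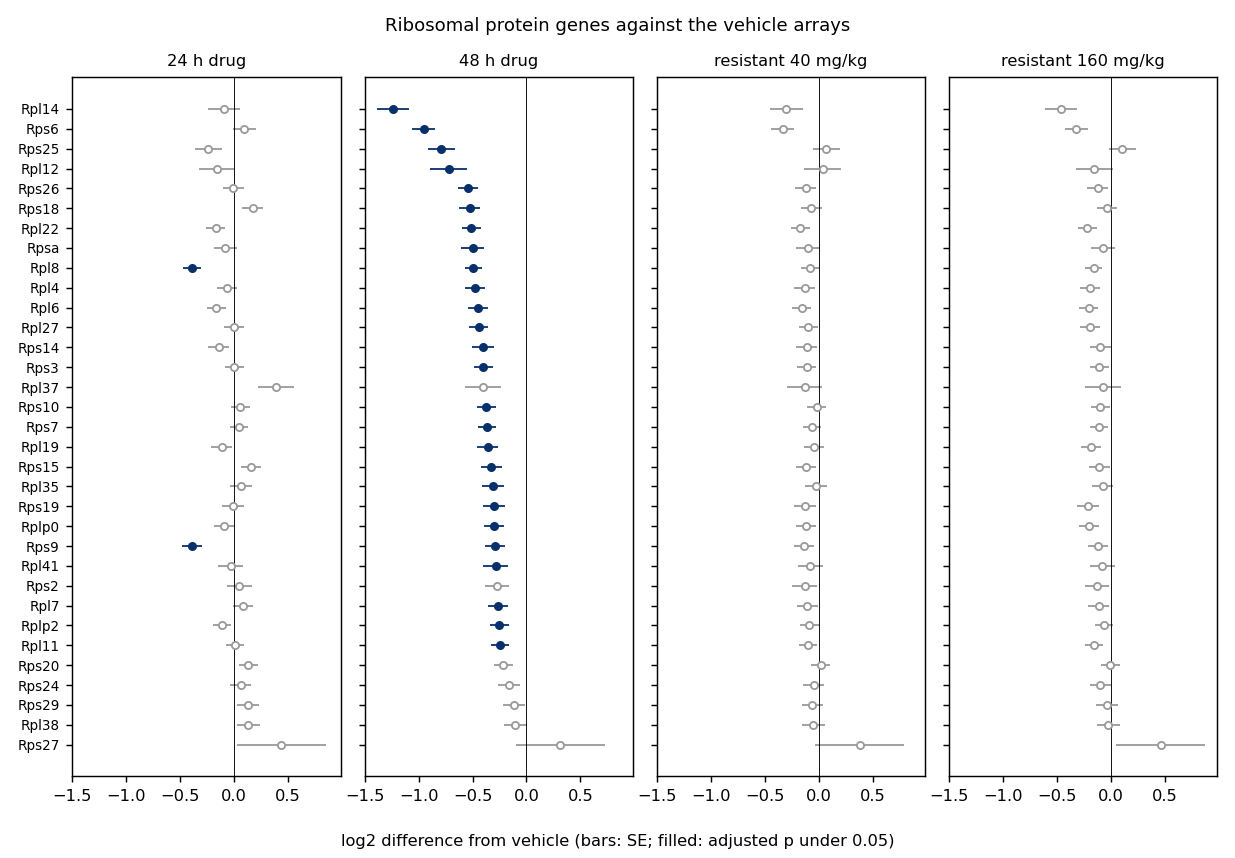
Log2 differences from the 3 vehicle arrays (points, with SE bars) for the 33 genes in the 24 h, 48 h, resistant 40 mg/kg and resistant 160 mg/kg groups, ordered by the 48 h difference; filled points have a limma adjusted p under 0.05. At 48 h 26 genes are filled, at 24 h 2 (Rpl8 and Rps9), and in the resistant groups 0.

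The median fall was larger among the dim than among the bright probe sets of the family, though the dim ones spread widely. Classes of mean signal were set after the data were seen and are a description. The 22 dim probe sets of the family, with mean signals under 1200, had a median difference of -0.61 (range -1.68 to 0.48), with 13 called lower. The 5 between the classes had a median of -0.51, and all 5 were called lower. Dim probe sets of other genes were not set beside them. The 49 bright ones, with mean signals above 4000, had a median of -0.33, with 40 called lower. Bright probe sets of other genes moved by a similar amount: the 211 with a mean log2 value above 12 and no ribosomal protein symbol had a median of -0.33 at 48 h, with 118 called lower and 27 higher. Whether the fall of the bright ribosomal protein probe sets is separate from that of bright probe sets in general was not tested. After quantile normalization, which gives all arrays 1 distribution of signals, 15 of the 33 genes were called lower and the median was -0.15, against a median of -0.06 over all probe sets.

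**Figure D3:**
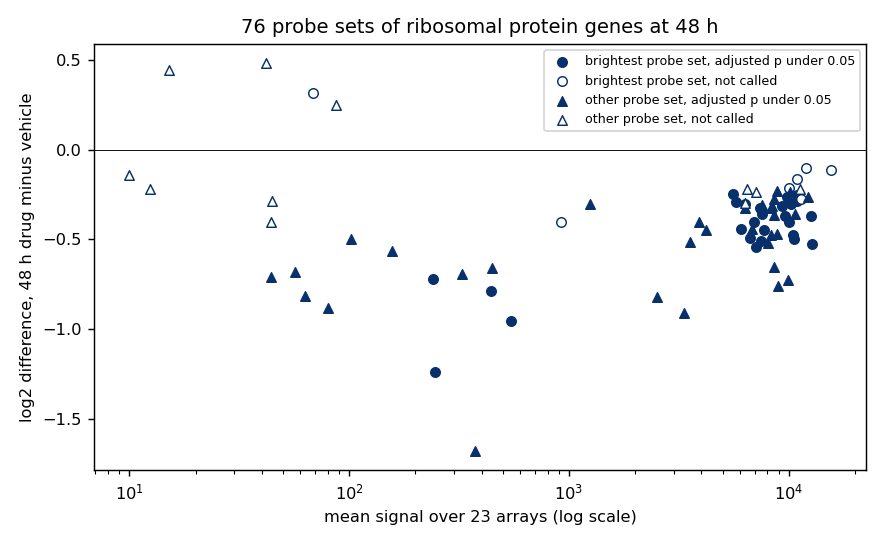
Log2 difference at 48 h against mean signal (log scale) for the 76 probe sets of the family, the brightest of each gene as circles and the others as triangles, filled where the limma adjusted p is under 0.05. Bright probe sets cluster near -0.33, and the largest falls, to -1.68, are among dim ones.

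The choice of vehicle arrays moved the 48 h count. The 4 h vehicle arrays, labelled with other runs of identifiers than the vehicle arrays, had a median difference from vehicle of -0.18 over the 33 genes. No gene was called in that comparison, in which 0.123% of all probe sets were called, and 9 genes had an unadjusted p under 0.05. So did 2778 of all 35069 probe sets tested. Against the 4 h vehicle arrays, 9 genes were called lower at 48 h, while 15.5% of all probe sets were called lower in that comparison, and the median was -0.18. The 9 genes were Rpl12, Rpl14, Rpl22, Rpl27, Rpl37, Rps18, Rps25, Rps26 and Rps6. Those 9 differences ran from -1.39 (Rpl14) to -0.30 (Rpl22). Rplp0, in contrast, was -0.01 against these arrays, adjusted p = 0.96 by limma, and 6 of the 33 genes lay above 0. Among those 6 were Rps14, a small subunit protein called lower against the vehicle arrays (-0.40), at 0.023, and Rpl41.

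Marker signals of several cell types shifted in the same 48 h arrays. The summed signal of 11 macrophage markers was 1683 to 2789 in vehicle and 28090 to 37880 at 48 h, with all 11 genes called higher. That of 7 fibroblast markers was 2874 to 7790 and 31780 to 44730, with all 7 called higher. That of 7 maturing neuron markers was 2565 to 2777 and 9092 to 9882, with 6 called higher. All 7 endothelial markers were called higher as well. Of the 10 progenitor and medulloblastoma markers, 5 were called lower (Atoh1, Pax6, Mycn, Gli1 and Gli2) and 3 higher (Zic1, Barhl1 and Neurod1). Atoh1, a transcription factor of the progenitors, went from 4101 ± 523 (SD, n = 3) in vehicle to 1528 ± 285 (n = 3) at 48 h. Neurod1, a factor of neuronal differentiation, went from 305 ± 27.7 (n = 3) to 6435 ± 204 (n = 3), and with Zic1 at 7829 ± 823 (n = 3) it made up most of the 48 h sum. The part of these shifts in the fall of the ribosomal protein genes was not tested, and in bulk tumour RNA fewer cells of a type and less RNA per cell cannot be told apart.

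At 24 h of drug, by which time Gli1 was at 20.4 ± 24.1 (SD, n = 3), 2 of the 33 genes were called lower and 0 higher, while 12.5% of all probe sets were called lower and 29% in either direction. The family's median difference was -0.002 against the vehicle arrays, but 0.20 against the 4 h vehicle arrays, with 27 of the 33 genes above 0, and 0.07 against all 5 vehicle arrays. Rpl8, a large subunit protein near the peptidyl transferase centre, went from 8400, 7755 and 7106 in vehicle to 5758, 6163 and 5771, a difference of -0.39 ± 0.08 (SE), adjusted p = 0.0006 by limma. Rps9, a small subunit body protein, went from 6822, 6633 and 6182 to 4896, 4816 and 5236, a difference of -0.39 ± 0.09 (SE), adjusted p = 0.0026 by limma. Neither gene's groups overlapped. The 2 other Rps9 probe sets did not share its fall, at -0.09 ± 0.14 and 0.13 ± 0.16 (SE). Rpl37, a zinc-binding large subunit protein, was not called and had a difference of the opposite sign, with 988, 732 and 950 in vehicle and 1146, 1026 and 1321 at 24 h, a difference of 0.39 ± 0.17 (SE).

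The 24 h calls changed with the control arrays and with a measure of RNA integrity. Against the 4 h vehicle arrays, where 21.9% of all probe sets were called, 3 other genes were called, Rps25 lower (-0.41) and Rps15 (0.36) and Rps24 (0.32) higher. The probe sets of Rps24 differed, since against the vehicle arrays 1 of its 6 was called lower at 24 h (-0.71). The ratio of the actin probe set at the 3' end to that at the 5' end, which rises as RNA degrades, was, as log2, 1.00 to 1.08 in vehicle, 1.41 to 1.83 at 24 h and 0.84 to 0.96 at 48 h. With that ratio as a covariate 1 gene was called at 24 h, Rpl37, and it was higher (0.83). Of 10 skeletal muscle markers, 8 were called higher at 24 h, with a summed signal of 999 to 9699 in vehicle and 9626 to 13510 at 24 h. Markers of other cell types were also called higher at 24 h: 7 of 7 fibroblast markers (median log2 difference 1.90), 5 of 7 maturing neuron markers (1.89), 6 of 11 macrophage markers (0.76) and 3 of 7 endothelial markers (0.74). Of the 10 progenitor and medulloblastoma markers 4 were called higher and 3 lower. The part of these shifts in the 24 h values was not tested.

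Between 24 h and 48 h of drug, 22 of the 33 genes fell and 0 rose, while 10.8% of all probe sets were called lower and 20.5% in either direction. The median difference was -0.34, and in 29 genes every 48 h array lay below every 24 h array, which 20.3% of all probe sets did. The largest falls were those of Rpl14, from 280, 282 and 231 at 24 h to its 48 h values (-1.15 ± 0.15, SE), and of Rps6, from 627, 656 and 571 (-1.05 ± 0.11, SE). The 24 h arrays of both genes overlapped the vehicle arrays. Rpl37 fell from its 24 h values to 686, 812 and 527 (-0.79 ± 0.17, SE), and Rps18 from 14940, 16109 and 14604 (-0.70 ± 0.10, SE), with no overlap in either. Rps9 was the 1 gene with a difference above 0, at 0.10 ± 0.09 (SE), and was not called. With the actin ratio as a covariate 17 of the 22 genes lost their call and 5 kept it (Rpl14, Rpl27, Rpl37, Rps18 and Rps6), and the median was -0.25. The actin ratios of the 24 h and 48 h arrays did not overlap, so the covariate cannot cleanly separate RNA integrity from the time on drug. After quantile normalization 11 were called. Between the same groups all 11 macrophage markers were called higher (median log2 difference 2.74), as were 4 of 7 fibroblast markers (1.23) and 1 of 7 maturing neuron markers (0.52). Of the 10 skeletal muscle markers 1 was called lower (median -1.89), and of the progenitor and medulloblastoma markers 4 were called lower and 1 higher. The part of these shifts in the fall was not tested.

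**Figure D4:**
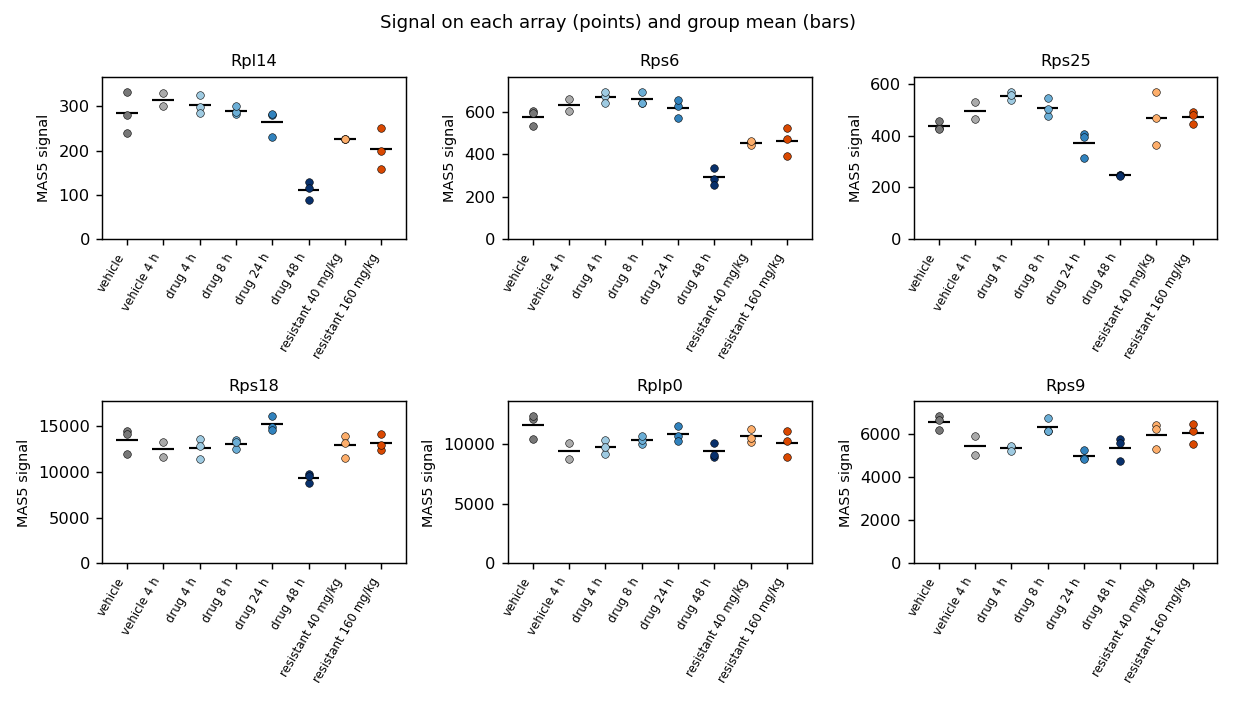
MAS5 signal on each array (points) and group mean (bars) for Rpl14, Rps6, Rps25, Rps18, Rplp0 and Rps9 in the 8 groups, each axis starting at 0. The 48 h arrays of Rpl14, Rps6, Rps25 and Rps18 lie below the arrays of the other groups, while Rps9 has its lowest mean at 24 h (4982).

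At 4 h and 8 h of drug, when the Gli1 signal was already lower, no gene of the family was called against the 4 h vehicle arrays by limma, and those 2 control arrays are shared by both comparisons. At 4 h 0.285% of all probe sets were called, the family's median difference was 0.02, and 0 genes had an unadjusted p under 0.05. At 8 h 3.25% of all probe sets were called, the median was 0.09, and 1 gene, Rps9 (0.22 ± 0.10, SE), had an unadjusted p under 0.05. Of all 35069 probe sets tested, 2316 at 4 h and 4823 at 8 h had an unadjusted p under 0.05. Rpl14 ranged from 285 to 325 at 4 h and from 282 to 300.2 at 8 h, against 301 and 329 in the 4 h vehicle arrays. Rps6 ranged from 640 to 694 at 4 h and from 640 to 693 at 8 h, against 660 and 606. All 4 ranges lie above the 48 h values of these genes. With 2 control arrays the standard errors ran from 0.09 to 0.46, and a p-value that misses the threshold does not show that the genes stayed level.

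In the resistant tumours no gene of the family was called against vehicle by limma at either dose. At 40 mg/kg 7.11% of all probe sets were called, the family's median was -0.10, and 1 gene, Rps6, had an unadjusted p under 0.05. At 160 mg/kg 1.01% were called, the median was -0.11, and 6 genes had an unadjusted p under 0.05 (Rpl14, Rpl22, Rpl27, Rpl6, Rplp0 and Rps6). Of all 35069 probe sets tested, 6841 at 40 mg/kg and 4784 at 160 mg/kg had an unadjusted p under 0.05. The direction depended on the control arrays: 29 and 31 of the 33 differences were below 0 against the vehicle arrays, while 28 and 23 were above 0 against the 4 h vehicle arrays, with medians of 0.09 and 0.07. The comparisons share their vehicle arrays with each other and with the 24 h and 48 h ones. Rps6 read 458, 442 and 464 at 40 mg/kg (-0.33 ± 0.11, SE, adjusted p = 0.065 by limma) and 392, 472 and 522 at 160 mg/kg (-0.32 ± 0.11, SE). Every resistant array lay below every vehicle array for this gene. Rpl14 read 227, 225 and 225 at 40 mg/kg (-0.30 ± 0.15, SE) and 159, 251 and 198 at 160 mg/kg (-0.47 ± 0.15, SE). Rps25 had differences above 0, at 0.07 ± 0.13 and 0.11 ± 0.13 (SE), and was not called. With all 5 vehicle arrays as the control Rps6 was called at 40 mg/kg (-0.38) and Rpl14 at 160 mg/kg (-0.53), and Rpl14 was also called at 160 mg/kg without the second array of that group (-0.62).

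The 2 resistant doses did not differ in any gene of the family by limma, with a median of -0.01 and 2.13% of all probe sets called. No gene had an unadjusted p under 0.05 there, while 4235 of all 35069 probe sets tested did, and the genes' differences ran from -0.19 to 0.08.

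Set against 48 h of drug, resistant tumours of both doses had 20 of the 33 genes higher and 0 lower, while 16.5% of all probe sets were called higher and 35% in either direction. The median difference was 0.27, and in 17 genes every resistant array lay above every 48 h array, which 13.3% of all probe sets did. Rps25 differed most, with 569, 363 and 470 at 40 mg/kg and 492, 481 and 445 at 160 mg/kg against 249, 246 and 245 (0.88 ± 0.11, SE, adjusted p = 7.4e-07 by limma). Rpl14 was higher by 0.86 ± 0.13 (SE), Rpl12 by 0.66 ± 0.15 (SE) and Rps6 by 0.63 ± 0.09 (SE). The groups overlapped in Rpl12 alone of these 4, where 1 array at 160 mg/kg read 174. Without the first 48 h array 13 genes were called, and after quantile normalization 12. The macrophage sum was also lower in these tumours than at 48 h, at 8724 to 12550 for 40 mg/kg and 3032 to 11820 for 160 mg/kg, with all 11 markers called lower. All 7 fibroblast markers, 6 of 7 endothelial and 5 of 7 maturing neuron markers were also called lower, and the part of these shifts in the difference was not tested.

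Across the 23 arrays most of the genes varied together. The correlation of a gene with the mean of the other members had a median of 0.79, and 485 of 528 pairs had a correlation above 0, with a median of 0.68. Rps26, a small subunit protein at the mRNA exit channel, followed the others most closely (0.97), and Rps9 (0.30) and Rps27 (-0.14) least. These arrays share their scaling and their groups, so the values describe these arrays and carry no test. The 48 h group had the lowest mean in 26 of the 33 genes, the 4 h vehicle group in 5 and the 4 h and 24 h drug groups in 1 each. Outside the list, the genes whose values followed the family mean most closely over the 23 arrays were Rpl10a (Pearson r 0.89), itself a large subunit protein, Pabpc1 (0.87), the poly(A) binding protein, Zmiz1 (0.87), Tgif2 (0.87) and Igf2 (0.86).

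Other lists of the translation machinery held more calls at 24 h than the ribosomal protein genes did, though the difference between lists was not tested. The lists were drawn up with earlier results of these data known. Of all probe sets tested, 12.5% were called lower at 24 h and 29% in either direction, and at 48 h 17.7% lower and 20.6% higher. Of 45 ribosome biogenesis genes, which build and process pre-ribosomes in the nucleolus, 28 were lower and 2 higher at 24 h (median -0.47) and 39 lower and 0 higher at 48 h (median -0.89). Nop56, a core protein of the particles that methylate rRNA, went from 1323 ± 111 (SD, n = 3) in vehicle to 371 ± 48.5 (n = 3) at 48 h, a log2 difference of -1.80. Nhp2 went from 2162 ± 52.6 (n = 3) to 728 ± 44.5 (n = 3), Polr1c, shared by RNA polymerases I and III, from 1442 ± 83.5 (n = 3) to 565 ± 49.0 (n = 3), and Dkc1, the pseudouridine synthase, from 1026 ± 150.0 (n = 3) to 304 ± 25.6 (n = 3).

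Of 25 genes on the initiation factor list, 13 were lower at 24 h and 22 at 48 h, and 0 were higher at either time. The initiation factor genes Eif3e, Eif3f, Eif3h and Eif4b were listed with the elongation factor and TOP genes instead. Eif4e, the cap-binding protein, went from 1613 ± 74.2 (SD, n = 3) in vehicle to 908 ± 77.8 (n = 3) at 24 h and 816 ± 28.9 (n = 3) at 48 h. Of 15 elongation factor and other TOP genes, 5 were lower and 2 higher at 24 h and 10 lower at 48 h. The 2 that were higher at 24 h were Eef2, the translocation factor (0.42 ± 0.09, SE), and Eif3f (0.28 ± 0.09, SE). Nap1l1, a histone chaperone with a TOP mRNA, had the largest fall of this list at 48 h (-1.31 ± 0.12, SE). Of 76 mitochondrial ribosomal protein genes, 31 were lower and 1 higher at 24 h and 42 lower and 1 higher at 48 h, led by Mrpl12 (-1.0 ± 0.09, SE, at 48 h).

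**Figure D5:**
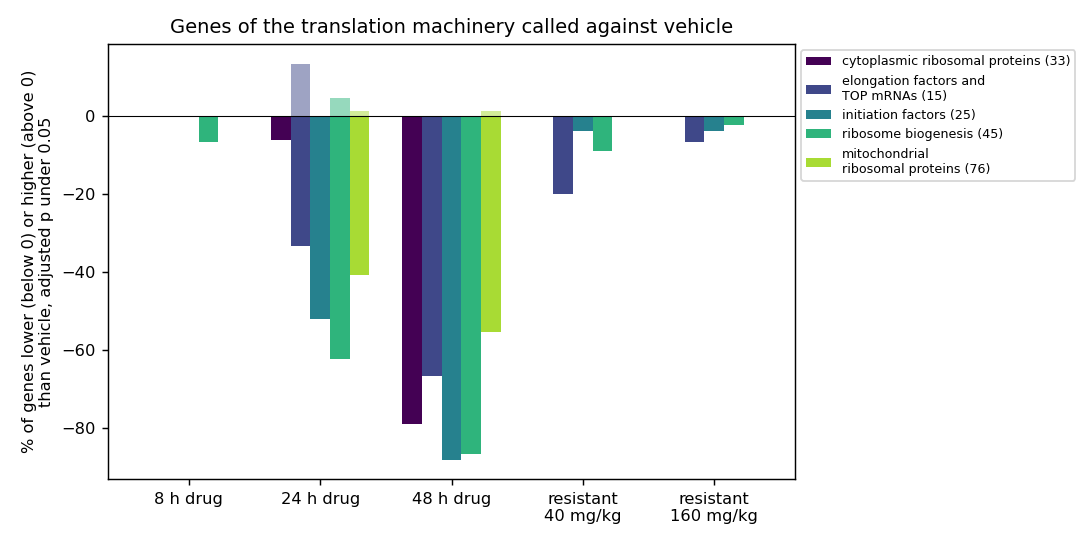
Share of the genes of 5 lists called lower (below 0) or higher (above 0) by limma at an adjusted p under 0.05, for 8 h of drug against the 4 h vehicle arrays and for 24 h, 48 h and the resistant groups against the vehicle arrays. At 24 h 2 of 33 cytoplasmic ribosomal protein genes and 28 of 45 biogenesis genes are lower, and at 48 h 26 of 33 and 39 of 45. Of all probe sets tested, 12.5% were called lower at 24 h and 17.7% at 48 h.

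Close paralogs of the ribosomal proteins did not move as 1 group. Of 5 measured, Rpl22l1 (-0.94 ± 0.13, SE), Rpl7l1 (-0.83 ± 0.10, SE) and Rps27l (-0.47 ± 0.09, SE) were lower at 48 h. Rpl39l, a paralog of Rpl39 known from testis, was higher, from 20.6 ± 14.4 (SD, n = 3) in vehicle to 73.9 ± 12.01 (n = 3) at 24 h and 176 ± 75.9 (n = 3) at 48 h, a log2 difference of 2.37 ± 0.34 (SE) at 48 h. Among 23 Myc and mTOR regulators of translation, 10 were lower and 4 higher at 48 h, while 17.7% of all probe sets were called lower and 20.6% higher. Mycn, which encodes N-Myc, went from 1158 ± 111 (SD, n = 3) to 399 ± 64.4 (n = 3), and Mycl from 749 ± 60.2 (n = 3) to 190.2 ± 76.9 (n = 3). Mxd3, a Max partner of the Mad family, went from 412 ± 27.0 (n = 3) to 28.9 ± 20.7 (n = 3) at 48 h, while Mxd4, of the same family, rose from 279 ± 23.1 (n = 3) to 549 ± 50.8 (n = 3). Larp1, which binds TOP mRNAs, was lower at 48 h (-0.82 ± 0.11, SE).

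In the resistant tumours few of these genes differed from vehicle. Of all probe sets tested, 7.11% were called at 40 mg/kg and 1.01% at 160 mg/kg. Ribosome biogenesis had 4 of 45 genes lower at 40 mg/kg (Dkc1, Ncl, Nhp2 and Npm1) and 1 lower at 160 mg/kg (Nhp2, -0.48). The elongation and TOP list had Eef1d, Eif4b and Nap1l1 lower at 40 mg/kg and Eef1d at 160 mg/kg, and the initiation list had Eif3d lower at 40 mg/kg and Eif2s2 at 160 mg/kg. Mitochondrial ribosomal protein genes had 0 of 76 called at either dose by limma, as did the cytoplasmic ones.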

How the data were processed

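Total RNA from flash-frozen tumours was hybridised as biotinylated cRNA, per the labels' protocols. The authors processed the arrays with MAS5, per the submitters' processing notes, and deposited linear signal intensity for 45101 probe sets on 23 arrays, with a 2% trimmed mean of 150. The design text names the 430A 2.0 array, while this number of probe sets is the layout of the larger 430 2.0 array. Arrays give no counting error, so their number limits the precision. Samples were grouped by description, and all 23 columns were mapped.

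An offset of 16 was added before log2 was taken. Tested were the 35069 probe sets that passed the 40th percentile of at least 2 arrays, without 64 control probe sets. A single limma 3.58.1 model in R 4.3.3 gave each of 8 groups its mean (eBayes with trend, 15 residual and 8.5 prior degrees of freedom). Two-sided p-values were adjusted by Benjamini-Hochberg within each of 10 comparisons over all tested probe sets. Untimed vehicle arrays were the control of the 24 h, 48 h and resistant groups. The resistant contrast with 48 h weights both doses equally. The fit was tested on simulated data.

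Gene names came from the platform annotation supplied with the series: 34945 probe sets have 1 symbol, 932 several and 9160 none. Probe sets with the suffixes x_at, s_at or a_at can detect more than 1 transcript, of the same gene or of related genes. Which transcript gave their signal is thus uncertain. They are 31, 3 and 18 of the family's 77. Promoters came from RefSeq, and no protein sequence was used here.

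The members and lists were chosen with earlier results of these data known. Named are 10 members fixed by name (7 measured), then in each comparison the 4 largest called falls and rises, members opposite to the median, Gli1 and, in each list, called genes with the smallest p. Rpl37 at 24 h, Rps29, Rpl38, Rps24, Rps18 and Rps14 at 48 h, Rpl35, uncalled genes in the resistant groups, Rps26, Eif3f and Larp1 were chosen after their values were seen. Alternatives were offsets of 1 and 64, no filter, quantile normalization, only the compared arrays, the replicate number or identifier run as a block, the actin ratio as a covariate, the median over a gene's probe sets, only probe sets without a shared-probe suffix, other vehicle controls and leaving out each array.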

Additional observations from a re-analysis of the deposited data

Results flagged for a closer look

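Results in which 2 drug-treated groups differed by a test of the difference itself were marked for a closer look. The first set is the contrast of 48 h with 24 h of drug, in which 22 of the 33 genes were lower by limma. Its largest members were Rpl14 (-1.15), Rps6 (-1.05), Rpl37 (-0.79) and Rps18 (-0.70), in log2 units. The actin 3' to 5' ratio also differed between these groups, at 1.41 to 1.83 at 24 h and 0.84 to 0.96 at 48 h. With that ratio as a covariate 17 of the 22 genes lost their call, and 5 kept it, these 4 and Rpl27. The median was then -0.25, against -0.34 without the covariate, and the ratio's part was not settled because its ranges do not overlap. In the same contrast all 11 macrophage markers were called higher (median 2.74), as were 4 of 7 fibroblast markers (median 1.23), and their part was not tested.

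The second set is the contrast of the resistant tumours with 48 h of drug, in which 20 of the 33 genes were higher by limma. Its largest members were Rps25 (0.88), Rpl14 (0.86), Rpl12 (0.66) and Rps6 (0.63). The macrophage sum was lower in the resistant tumours, at 3032 to 12550 against 28090 to 37880, all 7 fibroblast markers were called lower too, and their part was not tested. The 2 sets share the 48 h arrays, so they are not independent of each other. No group had 4 or more arrays, so no search for single deviating arrays within a group was made.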

How the results depend on the processing

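The number of family genes called by limma varied with the processing. Quantile normalization gave 5 at 24 h (3 lower, 2 higher; 2 without it), 15 at 48 h (26 without it), 11 between 48 h and 24 h (22) and 12 between resistant tumours and 48 h (20). Restriction to probe sets without a shared-probe suffix, which measures 19 of the genes, gave 1, 14, 10 and 12. The 1 at 24 h was Rps24, which was lower (-0.71). The actin covariate gave 1 at 24 h and 5 between 48 h and 24 h, where the median was -0.25. At 48 h against vehicle it gave 26, of which 25 were also called without it. Between resistant tumours and 48 h it gave 17, of which 15 were also called without it. All 5 vehicle arrays as the control gave 4 at 24 h, 20 at 48 h, 1 at resistant 40 mg/kg and 1 at resistant 160 mg/kg (0 in each resistant group otherwise). Of all 35069 probe sets tested, 11074, 14385, 3525 and 492 were called with that control, in the same order. The 4 h vehicle as the control gave 9 at 48 h and 1 at resistant 40 mg/kg. With it 5422 of all 35069 probe sets were called lower at 48 h, and 2638 were called in either direction at resistant 40 mg/kg. For the other alternatives the share of all probe sets called is not given here. The causes of these differences were not tested. The restriction to probe sets without a suffix also measured fewer genes. Leaving out each array in turn gave 19 to 27 at 48 h, 15 to 21 between 48 h and 24 h, 13 to 21 between resistant tumours and 48 h (13 without the first 48 h array), 2 to 2 at 24 h, 0 to 1 at resistant 160 mg/kg (1 without its second array) and 0 in the other comparisons. Against the 4 h vehicle the median turned from -0.002 to 0.20 at 24 h, from -0.10 to 0.09 at resistant 40 mg/kg and from -0.11 to 0.07 at resistant 160 mg/kg. The median at 48 h was below 0 under each of 18 alternatives, from -0.50 to -0.15. Among called genes direction reversed for Rps9 at 24 h on probe sets without a suffix (0.13, adjusted p = 0.59 by limma) and for Rpl41 at 48 h on such probe sets (0.25, adjusted p = 0.54) and against the 4 h vehicle (0.022, adjusted p = 0.92), for Rps14 at 48 h against the 4 h vehicle (0.023, adjusted p = 0.91) and for Rpl35 between resistant tumours and 48 h on probe sets without a suffix (-0.02). The probe sets without a suffix were dim in these genes, with mean signals of 156 (Rps9), 86.9 (Rpl41) and 44.5 (Rpl35). The brightest probe sets of the same genes had mean signals of 5769, 10890 and 9302. Quantile normalization moved the median of all probe sets at 48 h from 0.04 to -0.06, and the share of lower calls among all calls from 46.2% to 52.8%.

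Replicate numbers did not pair the samples: same-numbered arrays correlated at 0.077 or less. The replicate block gave 2 calls at 24 h, 25 at 48 h, 19 between 48 h and 24 h, 18 between resistant tumours and 48 h, and 0 elsewhere, and changed no count by over 1.5 times. Every vehicle, 48 h and resistant array carries 1 run of identifiers, and with the run as a block the counts were 2, 26, 19 and 20. Dim probe sets limit Rps27 most.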

Other observations

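Probe sets annotated to a family gene together with other genes were left out of the report. They number 87 among those tested, name 32 of the 56 listed genes, 21 of them among the dropped ones, and moved much as the single-gene probe sets did. At 48 h of drug 57 were called lower than vehicle and 1 higher by limma, with a median of -0.34. Between 48 h and 24 h 56 were lower and 1 higher, with a median of -0.37. Between the resistant tumours and 48 h 47 were higher and 1 lower, with a median of 0.24. At 24 h 6 were lower and 4 higher, and at 4 h and 8 h 0 were called. Of all probe sets tested, 17.7% were called lower and 20.6% higher at 48 h, and 10.8% lower between 48 h and 24 h. Between the resistant tumours and 48 h 16.5% were higher. At 24 h 12.5% were lower and 29% called in either direction, and at 4 h and 8 h 0.285% and 3.25% were called. A signal of this kind can come from a pseudogene, and which transcript gave it cannot be told apart here.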
